A study of Mus musculus with 19 samples.

Results

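The pericentral cytochrome P450 enzymes of liver and the proteins that serve them were described in mouse liver tumours: the enzymes Cyp2e1, Cyp1a2, Cyp2a5, Cyp2b10 and Cyp3a11, their electron donor Por, and the receptors Nr1i3 (CAR), Nr1i2 (PXR) and Ahr. The 9 genes were a fixed list of symbols, and all 9 were found by Ensembl identifier among the 39179 genes of the count table. The tumours came from BM mice: males heterozygous for Ctnnb1tm1Mmt, an allele that gives a stabilised β-catenin once recombined, and homozygous for Gt(ROSA)26Sortm1(MYC)Djmy, which expresses human MYC from the Rosa26 locus. Recombination was induced with AAV8.TBG.PI.Cre.rBG at 640000000 genome copies per mouse. The TBG promoter restricts Cre to hepatocytes, so tumours grew from scattered recombined hepatocytes and every tumour carried both alleles and had seen the same virus. The series holds 13 such tumours and 6 liver samples of control groups. Values are given for 10 whole tumours, numbered 04 to 13, whose columns could be matched to a sample. The control livers were not used here, so no level is set against normal liver. The column names carry 5 tags that fall into 3 families, RMH4 (tumours 04 to 06), RMH18 (tumours 07 and 08) and RMH35 (tumours 09 to 13). What the tags mean is not given in the labels, and tumours with a common tag may come from a single mouse.

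P450 enzymes are haem proteins of the endoplasmic reticulum that oxidise drugs, toxins, steroids and small solvents. They draw electrons from NADPH through the reductase encoded by Por. In normal liver most of them are made by the hepatocytes around the central vein, where Wnt ligands keep β-catenin active, while hepatocytes around the portal tract make little of them. CAR and PXR are nuclear receptors that bind DNA together with RXR and switch on Cyp2b and Cyp3a genes when drugs are present. The aryl hydrocarbon receptor pairs with ARNT and switches on Cyp1 genes.

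Because RNA of the 5 enzyme genes ranged from the highest level of any member to near absence, their promoters are shown. These are the stretches of 100 bases that lie directly before the RefSeq starts (GRCm38.p6). Each is printed 5′ to 3′ on the strand of its gene, with the letters TATAAA in capitals where they occur. Cyp2e1 lies at chr7:140763719-140763818 on the plus strand, Cyp1a2 at chr9:57683656-57683755 on the minus strand, Cyp2a5 at chr7:26835239-26835338 on the plus strand, Cyp3a11 at chr5:145879855-145879954 on the minus strand and Cyp2b10 at chr7:25897558-25897657 on the plus strand.
Cyp2e1: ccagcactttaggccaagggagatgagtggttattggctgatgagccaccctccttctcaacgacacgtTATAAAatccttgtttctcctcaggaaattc
Cyp1a2: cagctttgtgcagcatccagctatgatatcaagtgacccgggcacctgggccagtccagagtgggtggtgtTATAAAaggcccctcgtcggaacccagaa
Cyp2a5: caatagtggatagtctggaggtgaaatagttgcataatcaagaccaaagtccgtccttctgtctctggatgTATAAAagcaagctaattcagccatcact
Cyp3a11: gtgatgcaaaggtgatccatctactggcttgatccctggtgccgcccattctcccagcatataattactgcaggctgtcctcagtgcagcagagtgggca
Cyp2b10: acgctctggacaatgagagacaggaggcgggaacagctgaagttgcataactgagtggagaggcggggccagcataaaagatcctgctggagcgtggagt
The letters TATAAA, those of a TATA box, occurred on the strand of the gene before Cyp2e1, Cyp1a2 and Cyp2a5, beginning 29 to 31 bases before the start, and not in the windows of Cyp3a11 and Cyp2b10. Among 32851 promoters of the RefSeq table, 3.8% held them in the same window. Over 250 bases before the start and on both strands, CTTTGA, the core of sites for TCF, the DNA-binding partner of β-catenin, occurred before Cyp2e1, Cyp1a2, Cyp3a11 and Nr1i2 and in 13.8% of all promoters. AGTTCA and AGGTCA, the letters that nuclear receptors of this class read, each occurred once before Cyp3a11 and before no other member, against 11.8% and 14.0% of all promoters. GCGTG, the core of the sites read by the aryl hydrocarbon receptor, was not found before Cyp1a2 but occurred 2 times before Cyp2b10 and 3 times before Por, against 28.2% of all promoters. CACGTG, the E-box read by MYC, occurred before Nr1i3 and in 6.02% of all promoters. The promoter table held 8 of the 9 members, all but Ahr. The starts it gave for Por, Nr1i3 and Nr1i2 lay inside the gene spans given below. For Por the window ended at chr5:135689144 while the span begins at 135670040, so its 3 matches lie before an inner start. None of these motifs contains another. The matches describe letters, and absence from a short window says nothing of sites elsewhere.

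Each tumour had between 11687034 and 36964427 counts assigned to genes, and 3 counts, the limit that a count of 0 allows, equalled 0.0812 to 0.257 CPM, the counts of a gene in a library brought to 1000000 counts. Unlike these limits, the levels in CPM below were scaled by TMM factors of 0.927 to 1.12. The libraries were enriched for poly(A) RNA, and 4 RNAs without a poly(A) tail summed, before TMM scaling, to 45.1 to 77.5 CPM in tumours 05, 06 and 07, against 1.63 to 6.44 CPM in the other 7. For all 9 members the ranges of these 3 and of the other 7 tumours overlapped. Hepatocyte markers, led by albumin, summed to between 21520 CPM in tumour 05 and 34260 CPM in tumour 08, and albumin stood at 13020 CPM or more in every tumour. Red blood cell markers summed to 6178 CPM in tumour 07, with a median over tumours of 238 CPM, endothelial markers ranged from 35.95 to 302 CPM, those of stellate cells or fibroblasts from 184 to 1317 CPM, of macrophages from 43.8 to 130 CPM and of cholangiocytes from 13.6 to 145 CPM, and those of T, NK or B cells reached 3.97 CPM at most. Their part in the values below was not tested. In such whole-tumour RNA, fewer hepatocytes and less RNA per hepatocyte cannot be told apart.

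The tumours expressed 4 of the 5 enzymes strongly, together with the reductase and all 3 receptors, and lacked Cyp2b10 almost entirely. To compare genes with each other, CPM were divided by the length of the canonical transcript in kilobases. On this scale Cyp2e1 stood at 4020 ± 1112 (SD, n = 10 tumours, as for all values below), followed by Cyp3a11 at 675 ± 303, Cyp2a5 at 592 ± 277, Por at 531 ± 147 and Cyp1a2 at 451 ± 178. The receptors were an order below, with Nr1i2 at 48.5 ± 7.74, Nr1i3 at 36.8 ± 16.3 and Ahr at 18.8 ± 6.95, and Cyp2b10 was last at 0.0427 CPM per kilobase. Cyp2e1 exceeded the next gene in 10 of 10 tumours. The neighbours from Cyp3a11 to Cyp1a2 kept their order in only 5, 7 and 7 of 10 tumours, and did not differ beyond their spread. Cyp1a2 exceeded Nr1i2 in all 10, Nr1i2 exceeded Nr1i3 in 8, and Nr1i3 exceeded Ahr in 9. With the length of all annotated exons in place of the canonical transcript, Cyp3a11 came to 316 and Por to 274 and both fell below Cyp2a5 and Cyp1a2, at 435 for Cyp1a2, and Nr1i3 came to 11.9 and fell below Ahr at 16.9 CPM per kilobase, so these places in the order depend on the transcript that is counted. Nor were levels corrected for sequence shared with other genes, where reads placed at several sites, or on overlapping genes, may not be counted. Of the windows of 36 bases, the read length, 93.3% occurred in no other gene for Cyp2e1 and 72.8% for Cyp3a11 but 32.3% for Cyp2a5 and 41.5% for Nr1i3, so the levels per kilobase of the last 2 may be too low and their places in the order are uncertain. Of the summed level per kilobase of the 5 enzymes, Cyp2e1 supplied 69.7 ± 4.62%, with a range of 64.1% to 79.1%, also without that correction.

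**Figure D1:**
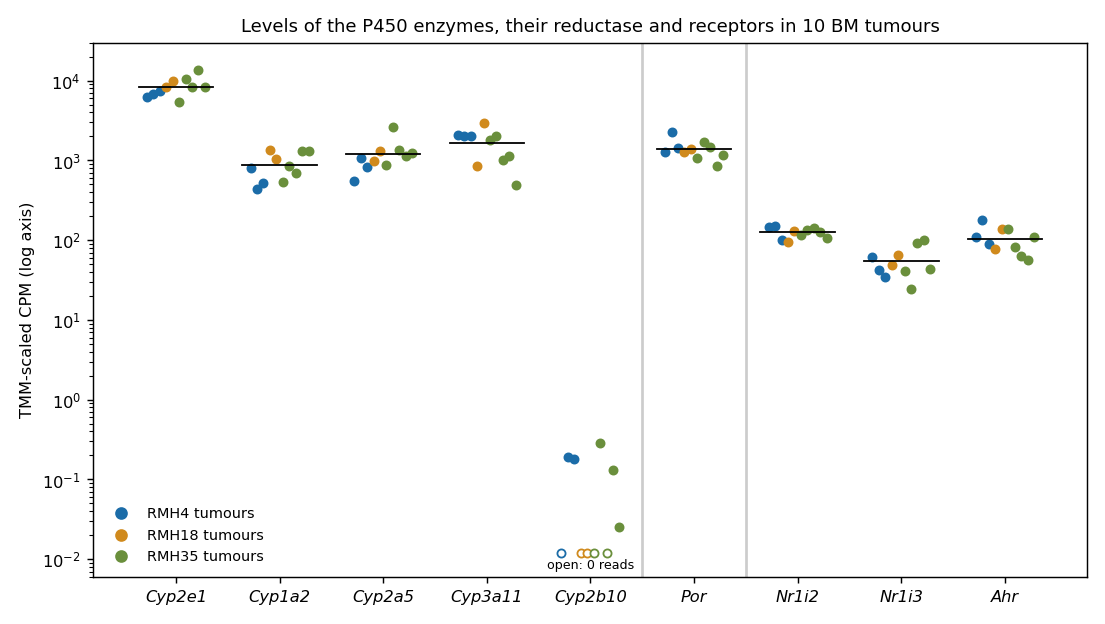
TMM-scaled CPM (log axis) of each member in 10 BM tumours, coloured by tag family, with a black line at the mean and open circles for 0 reads. Cyp2e1 sits between 5454 and 13620 CPM in every tumour, while Cyp2b10 does not exceed 0.287 CPM.

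Cyp2e1 oxidises ethanol, acetone and paracetamol and is the most abundant P450 of pericentral hepatocytes. It lies at chr7:140763819-140774990 (GRCm38.p6, as for all genes below). Its level was 8466 ± 2341 CPM, lowest in tumour 09 at 5454 CPM, with a median of 8238 CPM and highest in tumour 12 at 13620 CPM. Its range of 2.50-fold was the narrowest of the 4 expressed enzymes. Tumour 12 stood above the next tumour, number 10 at 10380 CPM, and the RMH4 tumours lay close together at 6324 to 7386 CPM.

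Cyp1a2 activates aromatic amines and clears caffeine, and with Cyp1a1 it is a classical target of the aryl hydrocarbon receptor. It lies at chr9:57676937-57683655. Its level was 885 ± 350 CPM, lowest in tumour 05 at 434.5 CPM, with a median of 833 CPM and highest in tumour 07 at 1354 CPM. The tumours fell into a low range of 434.5 to 538 CPM in tumours 05, 06 and 09 and a high range of 1300.0 to 1354 CPM in tumours 07, 12 and 13, with the other 4 between 691 and 1030 CPM. Its relative Cyp1a1, which responds more strongly to the same receptor, was near absent at 0.267 ± 0.168 CPM per kilobase against 451 ± 178 for Cyp1a2. Cyp1a1 had 212 reads over all 10 tumours together. In canonical transcripts, 93.0% of the 36-base windows of Cyp1a2 occurred in no other gene, and most of the rest were shared with Cyp1a1.

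Cyp3a11, the main mouse counterpart of the human drug-metabolising CYP3A4, lies at chr5:145854607-145879854. Its level was 1644 ± 738 CPM, lowest in tumour 13 at 498 CPM, with a median of 1928 CPM and highest in tumour 08 at 2913 CPM. This range of 5.85-fold was the widest of the members tested. Tumours 04, 05, 06 and 10 lay within 2025 to 2094 CPM, tumours 07, 11 and 12 lay at 849 to 1154 CPM, and tumour 13 was far below them. The ratio of Cyp3a11 to Cyp1a2 changed even more, from 0.383 in tumour 13 to 4.67 in tumour 05, a range of 12.2-fold. The other genes of the Cyp3a family were lower in CPM per kilobase: Cyp3a25 stood at 49.4 ± 18.2, Cyp3a13 at 15.6 ± 9.04, Cyp3a16 at 3.65 ± 1.60, Cyp3a44 at 0.205 ± 0.123 and Cyp3a41a at 0.102 ± 0.0632, against 675 ± 303 for Cyp3a11. Of the 36-base windows of Cyp3a11, 72.8% occurred in no other gene. Its reads can fall on relatives, and the value of Cyp3a16 in particular, 13.2% of whose windows are shared with Cyp3a11, is uncertain. Only 0.395% of the windows of Cyp3a41a were its own, so its near absence cannot be read from uniquely placed reads.

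Cyp2a5 hydroxylates coumarin and nicotine and lies at chr7:26835339-26843264 in a cluster of Cyp2 genes. Its level was 1202 ± 564 CPM, lowest in tumour 04 at 556 CPM, with a median of 1103 CPM and highest in tumour 10 at 2644 CPM. Tumour 10 stood well above the next tumour, number 11 at 1369 CPM, and the other 9 spanned 556 to 1369 CPM. Cyp2a5 was the only gene of its cluster expressed at a high level. Of the 13 Cyp2 genes in the cluster, chosen after the values were seen, it made up 93.8% to 99.0% of the summed CPM per kilobase in each tumour. The highest value of any of the other 12 genes in any tumour was 25.7 CPM per kilobase, for Cyp2f2 in tumour 08, against a lowest value of 274 for Cyp2a5. Cyp2f2, a periportal enzyme of lung and liver, had a mean of 5.49 ± 8.58 and Cyp2a12 had 4.62 ± 4.25 CPM per kilobase. Cyp2a4, a steroid hydroxylase nearly identical to Cyp2a5, had 1.67 ± 1.85 CPM per kilobase against 592 ± 277. This pair shares much of its sequence, with 32.3% of the 36-base windows of Cyp2a5 and 32.6% of those of Cyp2a4 found in no other gene. Reads placed at several sites were set aside in the deposited table, so reads of the pair are uncertain. These shares are of single windows, and the share that paired reads could place was not computed.

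**Figure D2:**
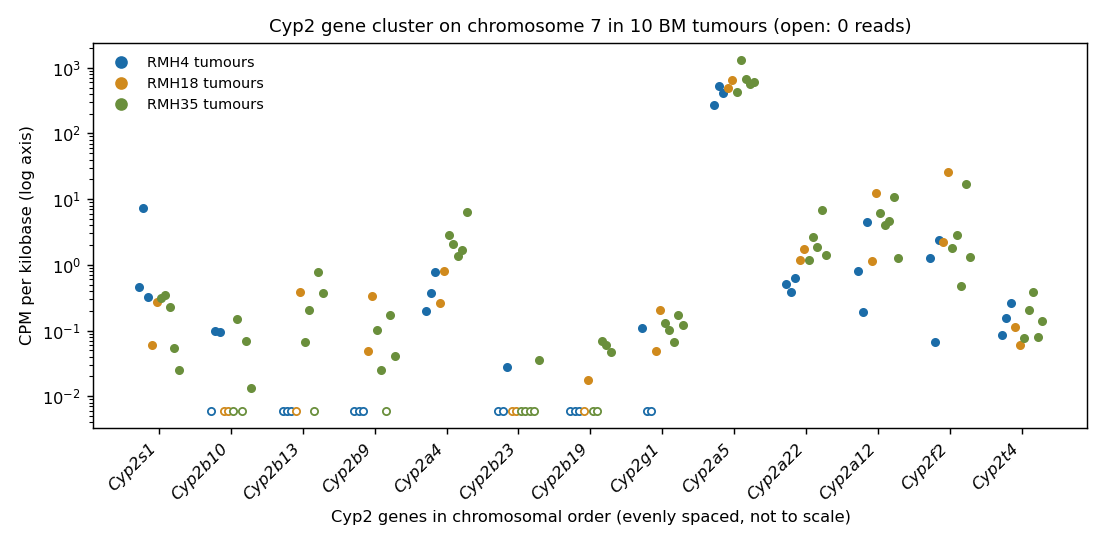
CPM per kilobase of canonical transcript (log axis) for the 13 Cyp2 genes of the chromosome 7 cluster, in chromosomal order, in 10 BM tumours coloured by tag family, with open circles for 0 reads. Cyp2a5 lies at 274 to 1301 in every tumour, and no other gene of the cluster exceeds 25.7 CPM per kilobase.

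Cyp2b10, the classical target of CAR and of phenobarbital, lies at chr7:25897658-25926624 in the same cluster. It had 17 reads in all, with 6 in tumour 10, 4 in tumour 12, 3 each in tumours 05 and 06 and 1 in tumour 13. The other 5 tumours had 0 reads, which allows up to 0.144 to 0.257 CPM in each before TMM scaling. The highest value was 0.287 CPM after TMM scaling, a scale on which it cannot be set directly against those limits. It did not pass the filter on low counts and was left out of the main edgeR fits, while 7 of the correlations tested below hold it. Of its 36-base windows, 82.6% occurred in no other gene. Its relatives Cyp2b9 and Cyp2b13 had 31 and 97 reads over all tumours, with 4 and 5 tumours at 0. The highest counts were 13 reads of Cyp2b9 in tumour 08 and 45 of Cyp2b13 in tumour 12.

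Por, whose product passes electrons to the microsomal P450 enzymes, lies at chr5:135670040-135735326. Its level was 1401 ± 389 CPM, lowest in tumour 12 at 848 CPM, with a median of 1347 CPM and highest in tumour 05 at 2276 CPM. Tumour 05 stood above the next tumour, number 10 at 1719 CPM. The ratio of Por to Cyp2e1 ran from 0.0623 in tumour 12 to 0.330 in tumour 05. All 36-base windows of Por were its own. The other electron carriers were expressed throughout. Cyb5a, the microsomal cytochrome b5, stood at 1039 ± 165 CPM, and Cyb5b, its mitochondrial counterpart, varied most of the 6 listed genes with an SD of 0.49 on the log2 scale.

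Nr1i2, which encodes PXR, lies at chr16:38248349-38294849. Its level was 125 ± 20.0 CPM, lowest in tumour 07 at 94.0 CPM, with a median of 129 CPM and highest in tumour 05 at 153 CPM. A range of 1.63-fold made it the steadiest member. All of its 36-base windows were its own.

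Nr1i3, which encodes CAR, lies at chr1:171213934-171218845. Its level was 55.4 ± 24.5 CPM, lowest in tumour 10 at 24.1 CPM, with a median of 46.5 CPM and highest in tumour 12 at 99.95 CPM. Tumours 11 and 12 stood apart at 91.3 and 99.95 CPM, with the other 8 at 24.1 to 65.6 CPM. Of its 36-base windows, 58.5% also lie in transcripts of Tomm40l, which overlaps it on the opposite strand, and 41.5% in no other gene. Whether counting used strand is not stated for these libraries, so reads of the pair are uncertain. Tomm40l itself was at 10.7 ± 2.93 CPM.

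Ahr, the aryl hydrocarbon receptor, lies at chr12:35497979-35534989. Its level was 104 ± 38.7 CPM, lowest in tumour 12 at 55.9 CPM, with a median of 99.7 CPM and highest in tumour 05 at 179 CPM. Tumour 05 thus held the highest Ahr, Por and Nr1i2 and the lowest Cyp1a2, and tumour 12 the lowest Ahr and Por with the highest Cyp2e1 and Nr1i3. The partners of the receptors were present in every tumour. Rxra, the partner of CAR and PXR, stood at 569 ± 117 CPM, Arnt, the partner of the aryl hydrocarbon receptor, at 67.9 ± 25.8 CPM, and the chaperone Hsp90ab1, the most abundant of the 20 listed partners and regulators, at 2140 ± 416 CPM. Ahrr, the repressor that the aryl hydrocarbon receptor itself induces, was near absent, at 0.0597 CPM on average with 0 reads in 4 tumours.

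**Figure D3:**
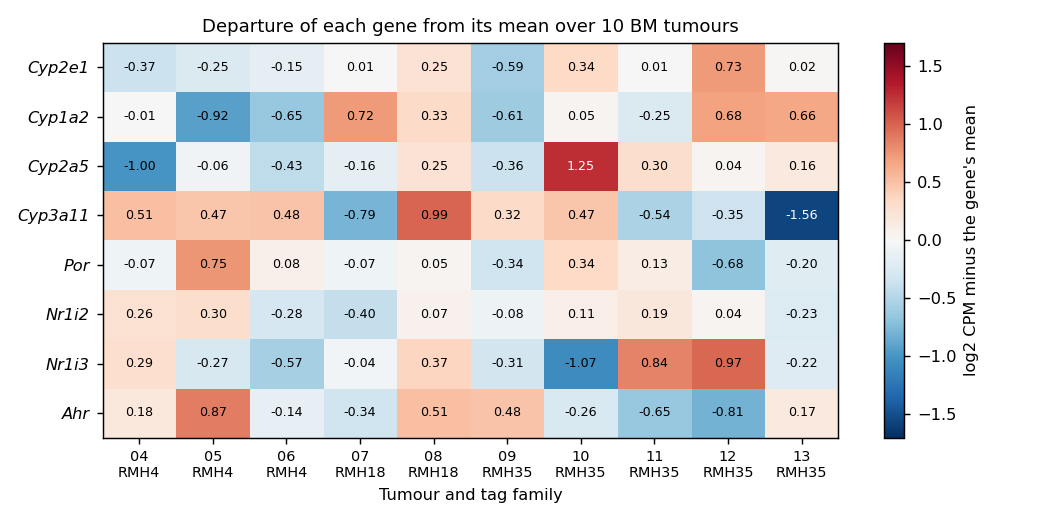
Departure of the log2 CPM of 8 members from the mean of each gene over 10 BM tumours, with the tag family under each tumour number and red for higher, blue for lower. Cyp3a11 in tumour 13 is farthest from its mean at -1.56, and Cyp2a5 in tumour 10 is farthest above at 1.25.

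The spread of the members between tumours was moderate. Of the 8 members that passed the filter on low counts, 0 had an SD above 1 on the log2 scale, against 5.17% of the 12462 genes tested (644 genes), and 7 of the 8 lay above the median SD of all genes, 0.33. Cyp3a11 had the largest SD, 0.78, higher than that of 89.9% of genes, followed by Nr1i3 at 0.63, Cyp1a2 at 0.60, Cyp2a5 at 0.59 and Ahr at 0.54. Cyp2e1 and Por each had 0.38, and Nr1i2 had 0.24, above only 22.6% of genes.

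The 3 tag families were compared with edgeR's quasi-likelihood test with Benjamini-Hochberg adjustment over all genes. None of the 8 members tested differed between families, where 0.00802% of the genes (1 of 12462) passed, with 1734 at an unadjusted p under 0.05. The gene that passed was Cyp2c39, a retinoid hydroxylase, highest in tumour 05 at 577 CPM and lowest in tumour 13 at 1.84 CPM, and no gene passed without tumour 05, 06, 10, 11 or 13. Among the members Cyp1a2 came nearest, with 590 ± 199 CPM in the 3 RMH4 tumours, 1030 and 1354 CPM in the RMH18 pair and 940 ± 355 CPM in the 5 RMH35 tumours (edgeR adjusted p = 0.400). All RMH4 tumours lay below the RMH18 pair, and the RMH35 tumours spanned both at 538 to 1320 CPM.

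Whether the members followed β-catenin output was examined with slopes on Glul, which encodes glutamine synthetase and is a textbook pericentral target of β-catenin. Glul was high in every tumour, at 10580 ± 2931 CPM, from 5388 CPM in tumour 09 to 14850 CPM in tumour 04. No member of 8 had a slope that passed the test, and neither did any other of 12461 genes (0%), while 397 genes had an unadjusted edgeR p under 0.05 and DESeq2 called 10. The slopes, in log2 units of the member per log2 unit of Glul, were 0.38 ± 0.32 (SE) for Cyp2e1, 0.49 ± 0.44 for Cyp3a11, 0.48 ± 0.42 for Nr1i3, 0.25 ± 0.45 for Cyp1a2 and -0.31 ± 0.49 for Cyp2a5, each with an edgeR adjusted p of 1.00. These slopes moved with single tumours and with the model, and none passed in any fit. Without tumour 09, which had the lowest Glul, they were 0.06 for Cyp2e1, 1.63 for Cyp3a11, -0.19 for Cyp1a2 and -1.09 for Cyp2a5. With the tag family as a term, the slope was 0.82 for Cyp2e1 (edgeR p = 0.0150, adjusted p = 0.265), 0.09 for Cyp3a11, 0.80 for Cyp1a2 and 0.32 for Cyp2a5.

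The second measure was a Wnt feedback score, the mean log2 CPM of Axin2, Nkd1, Notum, Rnf43, Znrf3, Sp5 and Lgr5, which ranged from 5.92 in tumour 06 to 7.57 in tumour 07. Glul and the score did not order the tumours alike. Log2 CPM of Glul was 13.15 in tumour 07, with the highest score, and 13.52 in tumour 06, with the lowest. Their relation was not tested. On the score none of the 8 members had a slope that passed, where 0.0321% of the genes (4 of 12455) did and 1673 had an unadjusted p under 0.05. Cyp1a2 had the steepest slope, 0.75 ± 0.31 log2 units per unit of the score (SE, edgeR p = 0.0341, adjusted p = 0.334), and Cyp2a5 followed at 0.69 ± 0.35 (adjusted p = 0.413). The fitted slope of Cyp2e1 was 0.27 ± 0.27 (adjusted p = 0.693). Cyp3a11 and Ahr had slopes of the other sign, -0.57 ± 0.44 (adjusted p = 0.604) and -0.46 ± 0.32 (adjusted p = 0.550), and Por was flat at 0.01 ± 0.26. Over the alternative fits the slope of Cyp1a2 ranged from 0.27 to 0.88 (adjusted p 0.189 to 0.887) and that of Cyp2a5 from 0.37 to 1.45 (adjusted p 0.201 to 0.722), and their order changed. Slopes of Cyp2e1 ran from 0.06 to 0.52, of Cyp3a11 from -0.72 to -0.21, of Ahr from -0.69 to -0.31 and of Por from -0.09 to 0.64. Without the 3 tumours rich in RNAs lacking a poly(A) tail the slopes were 0.27 for Cyp1a2, 1.45 for Cyp2a5 and 0.64 for Por, and with the tag family as a term 0.40, 0.57 and 0.47. The genes that passed were Cyp2c37, a pericentral P450 of the arachidonate-oxidising Cyp2c family, with a slope of 1.55 (adjusted p = 0.0264), Scn4b, a sodium channel subunit, at 2.26 (0.0460), Aspscr1 at 1.09 (0.0460) and the metalloreductase Steap4 at -1.66 (0.0128). Without tumour 07, which had the highest score, or without tumour 11, the count of genes that passed fell to 0, as it did with the tag family as a term and without the 3 tumours rich in RNAs lacking a poly(A) tail.

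**Figure D4:**
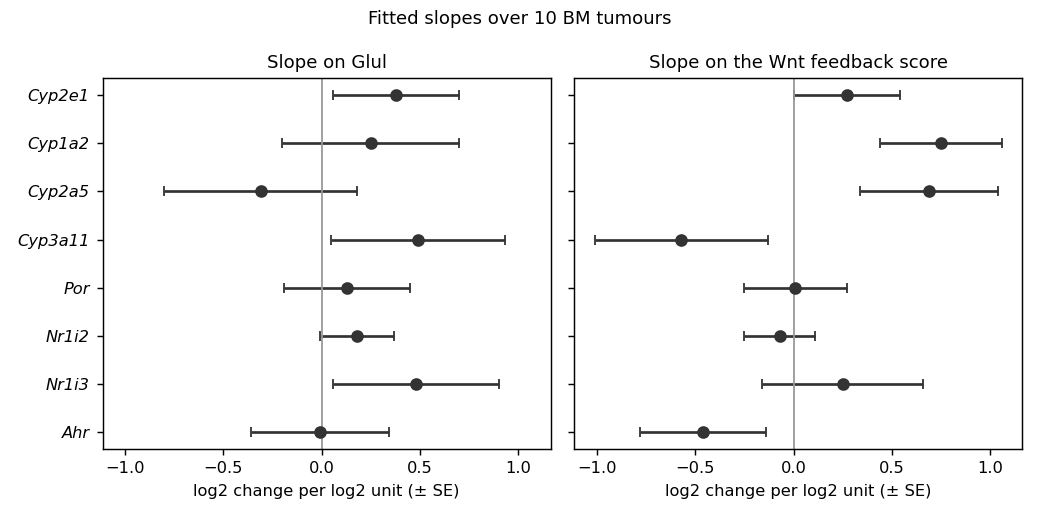
Fitted slopes of 8 members on Glul (left) and on the Wnt feedback score (right) over 10 BM tumours, in log2 units per log2 unit, with bars of 1 SE. Slopes on the score are 0.75 for Cyp1a2 and 0.69 for Cyp2a5 and lie below 0 for Cyp3a11 and Ahr, and none passes the test after adjustment.

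Whether a receptor and its target, or the enzymes among themselves, moved together was examined in 21 pairs by Pearson's r and Spearman's rho of log2 CPM over the 10 tumours, with permutation tests and Benjamini-Hochberg adjustment over the pairs. No pair passed, with a smallest adjusted p of 0.489 for r and 0.326 for rho, and 1 pair had an unadjusted p under 0.05 for r. This pair was Cyp2e1 and Cyp1a2 (r = 0.642, permutation p = 0.0437, adjusted p = 0.489, rho = 0.697, adjusted p = 0.326). Its r was 0.458 without tumours 09 and 12, 0.529 for deviations from the family means, and 0.739 in the 7 tumours with few RNAs lacking a poly(A) tail. Cyp2e1 and Cyp2a5 gave r = 0.597 (permutation adjusted p = 0.489) and rho = 0.697 (adjusted p = 0.326). Without tumours 09 and 12 their r was 0.874, within families 0.465, and in the 7 tumours 0.589.

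The receptors did not track their targets in a way that passed the test. Ahr and Cyp1a2 had r = -0.476 (permutation adjusted p = 0.489) and rho = -0.503 (adjusted p = 0.603). This r rested on tumours 05 and 12, without which it was -0.017, and it was -0.451 within families and -0.251 in the 7 tumours. Nr1i2 and Cyp3a11 had r = 0.477 (permutation adjusted p = 0.489) and rho = 0.430 (adjusted p = 0.646), with 0.589 without tumours 06 and 07, 0.524 within families and 0.570 in the 7 tumours. Nr1i3 gave r = -0.272 with Cyp2a5 (permutation adjusted p = 0.642, rho = 0.139) and -0.204 with Cyp3a11 (adjusted p = 0.678, rho = -0.127). Without tumours 11 and 12 these were -0.605 and 0.036, within families -0.483 and -0.159, and in the 7 tumours -0.425 and -0.140, so that with Cyp3a11 changed sign. Tumour 10, which had the most Cyp2a5, had the least Nr1i3.

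Por followed none of the enzymes past the threshold. With Cyp1a2 its r was -0.572 (permutation adjusted p = 0.489, rho = -0.564, adjusted p = 0.595), which rested on tumours 05 and 12, without which r was -0.041. It was -0.507 within families and -0.312 in the 7 tumours. With Cyp2e1 its r was -0.266 (permutation adjusted p = 0.642, rho = -0.103), and without tumours 05 and 12 it turned to 0.734, while within families it was -0.071. With Cyp2a5 its r was 0.264 (permutation adjusted p = 0.642, rho = 0.309), or 0.795 within families and 0.493 in the 7 tumours, and with Cyp3a11 it was 0.364 (adjusted p = 0.622, rho = 0.382). Leaving out Cyp2b10, the 4 pairs of enzymes with Cyp3a11 or between Cyp1a2 and Cyp2a5 had r between -0.546, for Cyp1a2 with Cyp3a11, and 0.209, for Cyp1a2 with Cyp2a5. In the 7 pairs with Cyp2b10 the values rest on 17 reads and are not interpreted.

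**Figure D5:**
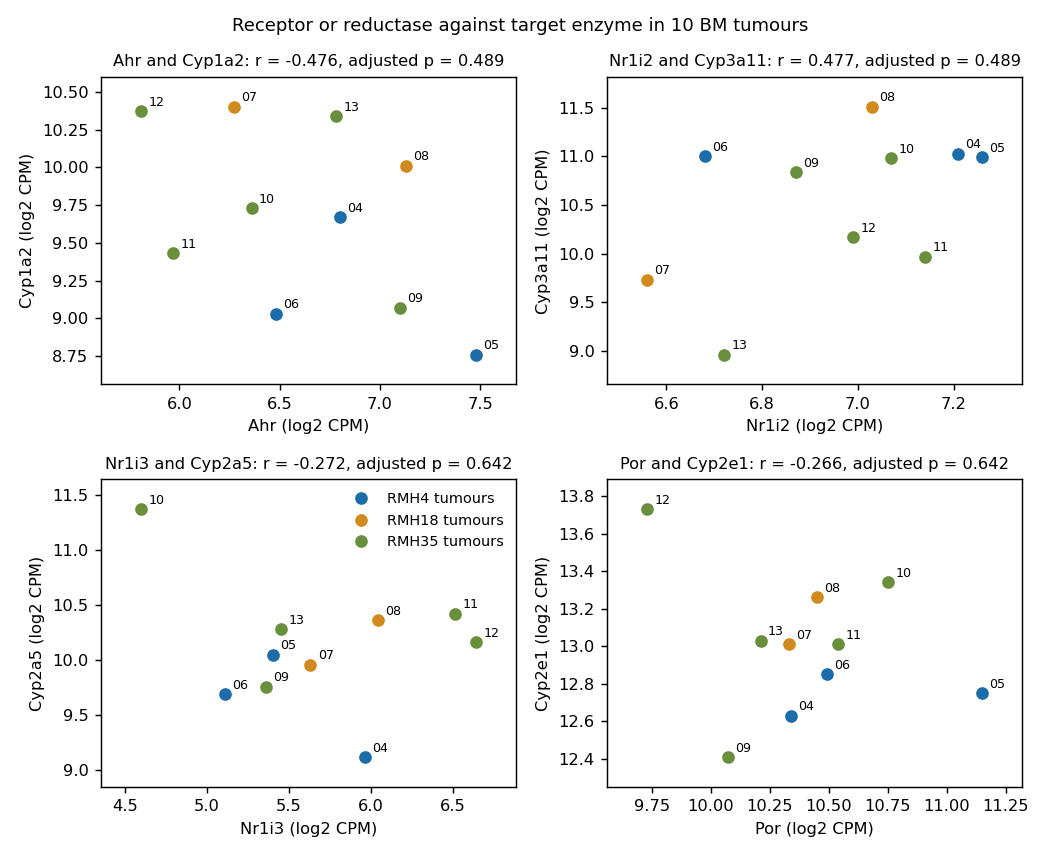
Log2 CPM of a receptor or of Por (horizontal) against a P450 enzyme (vertical) in 10 BM tumours, labelled by tumour number and coloured by tag family. The r values are -0.476 for Ahr and Cyp1a2, 0.477 for Nr1i2 and Cyp3a11, -0.272 for Nr1i3 and Cyp2a5 and -0.266 for Por and Cyp2e1, and none passes after adjustment.

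The genes whose log2 CPM were most like those of a member over the 10 tumours were named by the highest Pearson's r, which is high for some gene by the choice among 12462 and is given with no test. For Cyp2e1 they were the betaine transporter Slc6a12 (r = 0.928) and Gm13777 (0.925), for Cyp1a2 the phosphatidylcholine transfer protein Pctp (0.933) and Psmg1 (0.922), and for Cyp2a5 Acsf2 (0.917) and Rexo5 (0.891). For Cyp3a11 they were Cyp3a16 (0.969), with which it shares sequence, and Plscr2 (0.922). Those of Por were Maf1 (0.955) and Zfp316 (0.947), of Nr1i2 Sgms2 (0.945) and Myh14 (0.940), of Nr1i3 D730003I15Rik (0.873) and Fam131c (0.870), and of Ahr Cit (0.896) and Foxn3 (0.879). No member appeared in the list of another. For Cyp2b10, with 17 reads, none was named.

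Lists of other targets of the receptors were counted the same way. Of 21 listed targets of CAR and PXR, 20 were found and all 20 passed the filter, as did 12462 of the 39179 genes in the table. The most abundant was the glutathione transferase Gstm1, at 1929 ± 481 CPM, and the most variable was the stress gene Gadd45b, with an SD of 1.23 on the log2 scale and its highest level in tumour 05. On the Wnt feedback score 17 of the 20 had a positive slope, with a median of 0.38 against -0.01 over all genes, and 1, Cyp2c37, passed. At an unadjusted p under 0.05 on the score were 6 of the 20, against 13.4% of all genes, and between tag families 10 of the 20, against 13.9%. On Glul 11 of the 20 were positive, against 53.0% of all genes, and 0 passed (edgeR), with 2 at an unadjusted p under 0.05, against 3.19%. Of 9 listed targets of the aryl hydrocarbon receptor, 6 had reads in all 10 tumours and 3 passed the filter, led by Selenbp1 at 180 ± 117 CPM. Among those that did not pass, Cyp1b1 reached 5.24 CPM in tumour 09 and Aldh3a1 had no more than 2 reads in any tumour. The most variable of the 3 was Tiparp, whose product restrains the receptor, with an SD of 0.89 and its highest level in tumour 05. A list of 26 further P450 genes of families 1 to 3 held no Cyp2c gene. Cyp2c29, outside it, stood at 967 ± 452 CPM, or 542 ± 253 CPM per kilobase. Within the list 11 genes passed the filter, led by Cyp2d10 at 459 ± 125 CPM. Cyp2d9, a male-biased enzyme, varied most of these 11 with an SD of 1.27. On Glul 10 of these 11 had a positive slope, with a median of 0.57 and 3 at an unadjusted p under 0.05, and on the score 5 were positive, with a median of -0.02 and 1 at an unadjusted p under 0.05. None of the 11 passed either test or that of tag families (edgeR). Between families 4 had an unadjusted edgeR p under 0.05, against 13.9% of all genes.

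Every P450 enzyme needs haem, and RNA of 12 genes of its synthesis and breakdown was counted. Haem itself was not measured. All 12 passed the filter and none differed between families or followed Glul or the score past the threshold (edgeR). At an unadjusted edgeR p under 0.05 were 2, 0 and 3 genes for families, Glul and the score, against 13.9%, 3.19% and 13.4% of all genes. Alas1, the rate-limiting enzyme of haem synthesis and itself a target of CAR and PXR, stood at 319 ± 46.9 CPM with an SD of 0.21 on the log2 scale. Blvrb, which reduces biliverdin, was the most abundant at 483 ± 151 CPM. Hmox1, which degrades haem and is induced by stress, varied most, with an SD of 1.52, with a median of 71.4 CPM and a highest level of 792 CPM, in tumour 05.

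Other pericentral genes were also expressed in every tumour. Of 19 listed genes, 18 were found and all passed the filter, with Glul the most abundant and Cyp2c50 the most variable, with an SD of 1.08 on the log2 scale. On the Wnt feedback score 14 of the 18 had a positive slope, with a median of 0.49 and 9 at an unadjusted p under 0.05, against 13.4% of all genes. Cyp2c37 passed, but not in the fit with the tag family as a term, where 0 genes did. Cyp2c37, Cyp2c29 and Aldh1a1 are also among the CAR and PXR targets, so the counts of these lists are not independent. Between tag families 7 of the 18 pericentral genes had an unadjusted edgeR p under 0.05, against 13.9% of all genes, and none passed. Of 16 listed periportal genes 13 passed the filter, 3 of the 13 had a positive slope on the score, with a median of -0.50, and none passed the test (edgeR, 1 at an unadjusted p under 0.05). Over all genes 49.1% of slopes on the score were positive. On Glul the directions were not the same, with 6 of the 17 pericentral genes tested positive (median -0.06, 0 at an unadjusted p under 0.05) and 8 of the 13 periportal genes positive (median 0.47, 4 at an unadjusted p under 0.05). Over all genes 53.0% of slopes on Glul were positive, with a median of 0.02 and 3.19% at an unadjusted p under 0.05, and no gene of either list passed (edgeR). Periportal genes summed to between 143 CPM in tumour 05 and 1075 CPM in tumour 08, with phosphoenolpyruvate carboxykinase, Pck1, the most abundant at 183 ± 144 CPM.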

How the data were processed

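Whole tumours were profiled by RNA-seq (TruSeq stranded mRNA, paired-end reads of 36 bases). The authors deposited 1 table of raw counts per Ensembl gene. The submitters' processing notes name TopHat2, HTSeq and GRCm38, while the study's methods name other tools for single-end libraries, and the strand setting of the counting is not given in the sources used here. Reads placed at several sites were set aside by the authors. They made up 45.4% to 57.9% of the entries tallied per tumour, where a read with several placements may be entered more than once. Of 19 columns of the table, 9 could not be matched to exactly 1 sample title and were not used. Symbols came from GENCODE M39 (87.3% of identifiers matched) and positions and promoters from RefSeq (GRCm38.p6).

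Counts were filtered with filterByExpr as 1 group, scaled by TMM and tested with edgeR 4.0.16 (glmQLFit, glmQLFTest, adjusted p under 0.05) in R 4.3.3, with DESeq2 1.42.0 as the alternative. Log2 CPM used a prior count of 2. Permutation tests of r and rho used 100000 resamples, two-sided. Self-tests on simulated data were run for both. Labels do not say that tumours came from separate mice, so p-values measure the spread between these samples. Limits from counts of 0 cover counting error only. Members and gene lists were chosen with earlier results of these data known. Genes named beside the members were their close relatives, the genes of the Wnt feedback score, the most abundant and the most variable gene that passed the filter of each pathway list, genes past a threshold, and the 2 genes most like each member. Rxra, Arnt, Ahrr, Alas1, Cyp2a12, Cyp2f2, Cyp2c29, Aldh1a1, Tomm40l, Cyp1b1 and Aldh3a1 were named after their values were seen. Marker lists are given as sums, and some genes of the lists are not reported here.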

Additional observations from a re-analysis of the deposited data

How the results depend on the processing

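No member passed the threshold of any of the 3 fits under any of the 352 alternatives run on single members, where the smallest adjusted p was 0.189. The counts over all genes depended on the test and on single tumours. For tag families, edgeR called 1 gene, DESeq2 called 499, no filter on low counts 27, and leaving out a tumour between 0 and 176 (88 without tumour 04, 176 without tumour 09, 3 without tumour 07, 5 without tumour 08 and 0 without tumour 05, 06, 10, 11 or 13). For Glul, edgeR called 0 genes, DESeq2 called 10 and a fit with the tag family as a term called 10, while leaving out a tumour gave 0 to 0. For the Wnt feedback score, edgeR called 4 genes, DESeq2 called 273, the fit with the tag family 0, and leaving out a tumour between 0 and 5 (0 without tumour 07 or 11, 1 without tumour 09, 10, 12 or 13 and 2 without tumour 04). Without the 3 tumours rich in RNAs lacking a poly(A) tail, chosen after seeing the data, families and the score both gave 0. The cause of these changes was not tested. The number of genes with an SD above 1 was 644, and 350 after the variance stabilising transformation of DESeq2 or 2063 with no filter. No pair of members passed in any alternative, and 8 of the 21 correlations changed sign in 1 or more alternatives, none of them past the threshold. Levels in CPM stayed within 1 SD under both other scalings. No paired analysis was possible because each tumour number occurs once, so the tag families share no numbers. Depth limits Cyp2b10, at 17 reads.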
